A study of Mus musculus with 8 samples.

Results

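The classical cadherins, the non-clustered protocadherins, the giant Fat and Dachsous cadherins and the catenins that sit beneath them form the adhesion machinery described here, across embryonic mouse cerebral cortex with and without Taf8. The members were chosen by gene symbol, and all 40 were found among the 27179 genes of the count table. Polyadenylated RNA was sequenced from 4 Taf8-deleted embryos, whose labels give the genotype Taf8 -/lox, and from 4 wild-type embryos, labelled Taf8 +/+, with 1 library per embryo. The Taf8 protein is part of TFIID, the general factor that binds core promoters. The sources used here do not give the embryonic age, the strain or the Cre driver that acted on the lox allele. Levels are given as CPM, read counts scaled to library size, and as RPKM, the same per kilobase of gene length, wherever one gene is set against another. Fold changes are Taf8-deleted over wild-type, with n = 4 embryos per group throughout.

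Cadherins are calcium-dependent adhesion molecules whose outer repeats bind cadherins on the next cell. Classical cadherins hold beta- and p120-type catenins at their cytoplasmic tail, and alpha-catenins link the complex to actin. In the developing cortex N-cadherin (Cdh2) builds the apical junctions between radial glia, type II cadherins are laid down in area- and layer-specific patterns, and delta-protocadherins take part in axon growth and circuit formation. Fat4 and Dchs1 bind each other between neighbouring cells, and their loss disturbs the placing of neurons in human cortex.

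Libraries held 26312505 to 65523487 counts, so 3 counts correspond to 0.0458 to 0.114 CPM before TMM scaling. Taf8 itself was at 0.486 to 0.791 CPM in the deleted libraries, against 32.0 to 38.5 CPM in the wild-type libraries. The Y-linked gene Ddx3y was at 41.4 to 53.8 CPM in all 8 libraries, so every embryo expressed it. It did not pass the test (log2 fold change -0.02, edgeR adjusted p = 0.852). Xist was at 0.357 to 0.812 CPM in the deleted and 0.0525 to 0.174 CPM in the wild-type libraries, with 2 to 43 counts per library. Its log2 fold change was 2.52 (edgeR adjusted p = 0.000256). The values of both genes belong beside those of the X-linked members Pcdh11x and Pcdh19. Choroid plexus markers summed to 1234 CPM in deleted replicate 1 and 416 CPM in wild-type replicate 4, and to 16.0 to 203 CPM in the other 6 libraries. Meningeal fibroblast markers summed to 73.3, 119, 142 and 23.4 CPM in the deleted libraries, against 27.8 to 48.1 CPM in the wild-type libraries. The sum was lowest in deleted replicate 4, where Pdgfra, a marker that other cell types also express, was at 4.23 CPM, against 10.7 to 12.1 CPM in the wild-type libraries. Col1a2 and Col3a1 of the same list were at 5.08 and 6.64 CPM in deleted replicate 4, above 3 of the 4 wild-type libraries. In the labels' animal numbers, the part before the point is shared by wild-type replicates 1 to 3 and by no library of the other group. If it marks a litter, litter and genotype cannot be told apart, and the spread between embryos may be understated.

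Of the 39 members that passed the filter on low counts, 6 were higher and 13 lower in Taf8-deleted cortex at an adjusted p under 0.05, and 20 did not pass. Across all 15649 genes tested, 29.5% were higher and 29.6% lower, 59.2% in all, while of the tested members 15.4% were higher and 33.3% lower, 48.7% in all. Without deleted replicate 1 and wild-type replicate 4, which held the most choroid plexus RNA, 6 members were higher and 15 lower in a fit that called 51.5% of all genes. The median log2 fold change was -0.10 over the tested members and 0.01 over all tested genes, and the median absolute log2 fold change was 0.26 and 0.27. The median size of change was near that of all genes. The share of members called higher was below that of all genes and the share called lower slightly above it, and no test was made of either difference. The higher members were Cdh5, Cdh22, Pcdh8, Pcdh12, Pcdh19 and Fat1. The lower ones were Cdh4, Cdh8, Cdh9, Cdh10, Cdh11, Cdh12, Cdh13, Pcdh1, Pcdh7, Pcdh10, Pcdh18, Pcdh20 and Ctnna2. Changes of at least 2-fold were seen in 3 members, Cdh12, Cdh13 and Pcdh20, all of them lower, 7.69% of those tested, against 8.57% of all tested genes in either direction. The groups did not overlap in 20 members, 51.3% of those tested, against 53.6% of all genes. In 7 members the call, groups without overlap and a log2 fold change of at least 0.5 in size came together, 17.9% of those tested, against 22.7% of all genes.

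**Figure D1:**
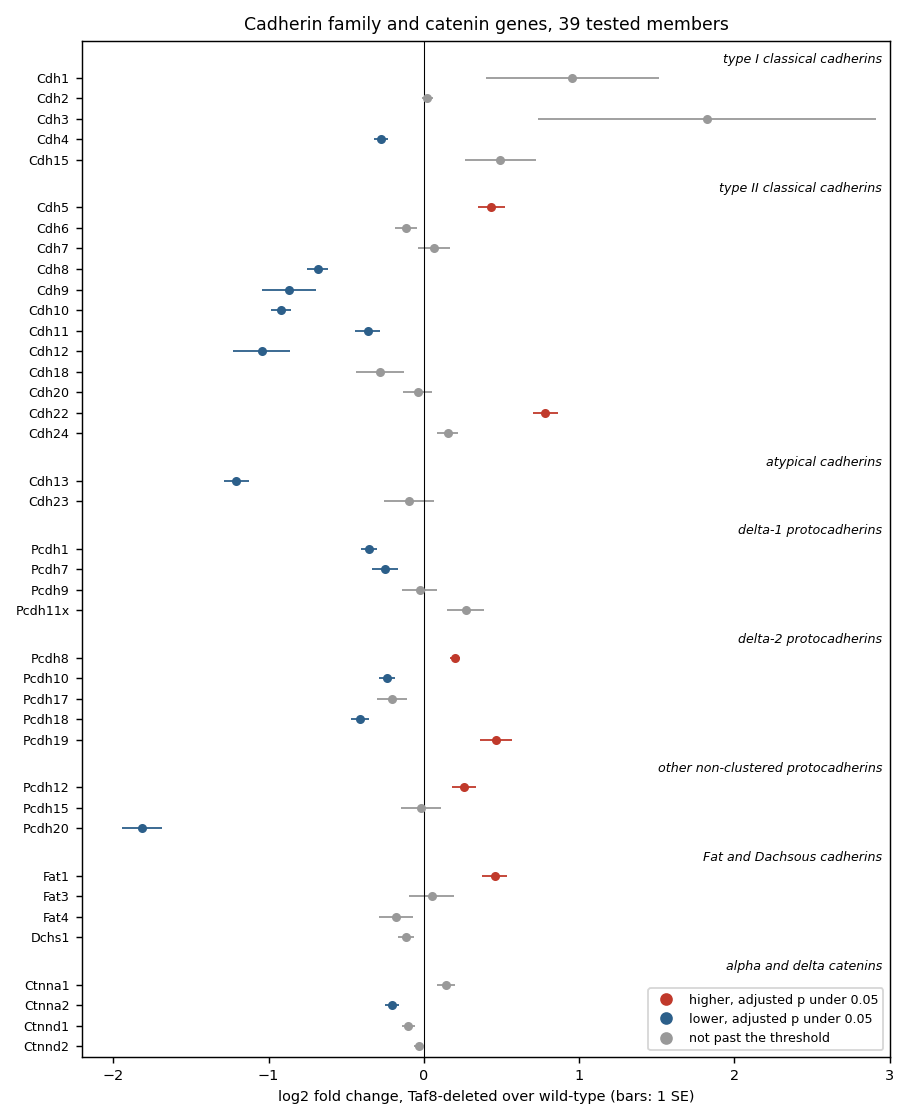
Log2 fold change of the 39 tested members, Taf8-deleted over wild-type, with bars of 1 SE, ordered by subfamily and coloured by the edgeR call. Pcdh20 at -1.82, Cdh13 at -1.21 and Cdh12 at -1.04 lie farthest to the left, and Cdh3 at 1.82 and Cdh1 at 0.96 have the widest error bars.

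Among the type I classical cadherins, N-cadherin dominated and did not differ detectably. Cdh2, the junctional cadherin of neural progenitors and neurons, was at 435, 443, 440.4 and 448 CPM in the deleted libraries, against 440.2, 438, 447 and 416 CPM in the wild-type libraries. Those groups overlapped almost completely, and the log2 fold change was 0.02 (SE 0.04, adjusted p = 0.622). Per length it was the highest of the 18 classical cadherin genes, at 95.1 ± 1.23 RPKM in deleted and 93.7 ± 2.93 RPKM in wild-type cortex (SD). Cdh4, R-cadherin, which is found in developing brain and retina, fell to 132 ± 3.28 CPM in deleted cortex, against 160.0 ± 7.7 CPM in wild-type cortex. Its log2 fold change was -0.28 (SE 0.04, adjusted p = 0.000315), and the groups did not overlap. Cdh15, M-cadherin of muscle, stayed under 1 CPM in every library and did not pass the test (log2 fold change 0.49, adjusted p = 0.0855).

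The epithelial cadherins Cdh1 (E-cadherin) and Cdh3 (P-cadherin) were scarce and uneven. Cdh3 was at 4.59, 0.584, 0.636 and 0.0377 CPM in the deleted libraries, against 0.0664, 0.15, 0.219 and 1.23 CPM in the wild-type libraries. The highest deleted and the highest wild-type library were the pair with the most choroid plexus RNA. The order of all 8 libraries by Cdh3 was also their order by summed choroid plexus markers. At its low end that order rested on 2, 2 and 6 counts of Cdh3 in deleted replicate 4 and wild-type replicates 1 and 2. The marker sums there were close, at 16.0, 16.7 and 17.9 CPM, of which Otx2 made 12.0, 8.33 and 12.5 CPM. The log2 fold change of Cdh3, 1.82 (SE 1.09, adjusted p = 0.173), rested on deleted replicate 1, and was -0.17 without that library. Cdh1 had a different order, at 0.237, 1.01, 0.486 and 0.151 CPM in the deleted libraries, against 0.299, 0.174, 0.172 and 0.289 CPM in the wild-type libraries. Its highest libraries were deleted replicates 2 and 3, which also had the highest meningeal marker sums. It did not pass the test (log2 fold change 0.96, SE 0.56, adjusted p = 0.164), and the value depended on single libraries. Without deleted replicate 2 it was 0.23 (adjusted p = 0.685), and without deleted replicate 4 it was 1.31 (adjusted p = 0.0421). Of 6 surface epithelium markers 4 were not tested, among them the keratins Krt5 and Krt14, at no more than 0.0525 CPM in any library. The keratins Krt8 and Krt18 of that list were highest in deleted replicate 1, at 1.79 and 3.82 CPM. Next came wild-type replicate 4, at 0.525 and 1.60 CPM. The 6 markers had a sum of 1.13 to 7.01 CPM in the deleted and 1.41 to 3.73 CPM in the wild-type libraries. With the meningeal level as a covariate, a fit chosen after seeing the data, the log2 fold change of Cdh1 was -0.15. How much of the values of Cdh1 and Cdh3 came from choroid plexus or meningeal RNA was not tested. Both genes lie next to each other on chromosome 8 (Cdh3 from 106510852 to 106556911 and Cdh1 from 106603350 to 106670247, mm10).

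**Figure D2:**
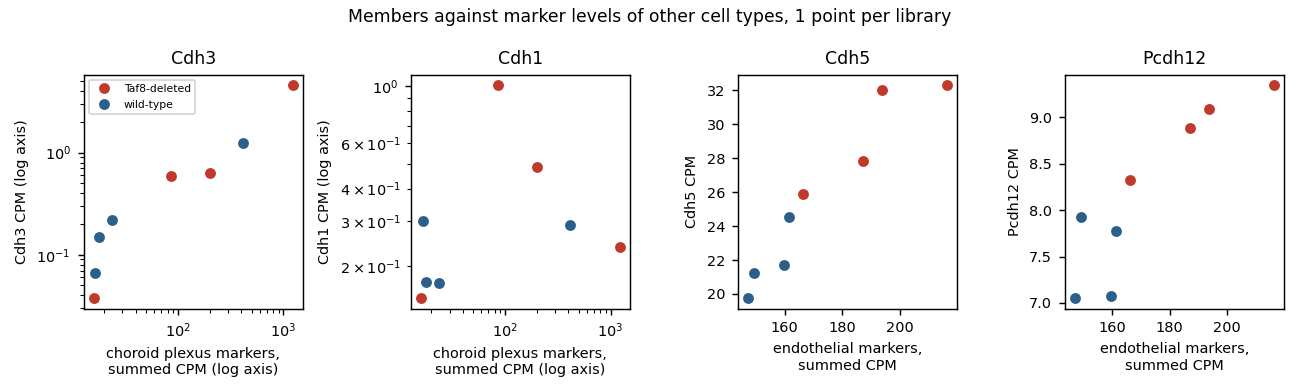
CPM of Cdh3 and Cdh1 against the summed CPM of choroid plexus markers (log axes), and of Cdh5 and Pcdh12 against that of endothelial markers (linear axes), with 1 point per library. Cdh3 has the order of the choroid plexus markers, up to 4.59 CPM at a marker sum of 1234 CPM. At the lowest sums it has 2 to 6 counts. Cdh1 is highest, at 1.01 CPM, where the sum of choroid plexus markers is 85.8 CPM.

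Type II cadherins moved in both directions, with 2 of 12 tested genes higher, 5 lower and 5 not past the test. The called share, 58.3%, was near the 59.2% of all tested genes. The sharpest falls were in Cdh8, Cdh9, Cdh10 and Cdh12, and the sharpest rise was in Cdh22. Cdh8, which is laid down in patterns across cortical areas and layers, was at 41.8, 39.3, 33.4 and 39.95 CPM in the deleted libraries, against 61.1, 59.3, 65.1 and 63.1 CPM in the wild-type libraries. Every deleted library lay well below every wild-type library, and the log2 fold change was -0.68 (SE 0.07, adjusted p = 9.13e-06). Cdh10 was at 11.9, 11.7, 11.9 and 11.7 CPM in the deleted libraries, against 20.9, 21.6, 24.8 and 22.1 CPM in the wild-type libraries. The SD of Cdh10 was 0.14 CPM in deleted and 1.72 CPM in wild-type cortex, each over only 4 libraries, and the difference in spread was not tested. Its log2 fold change was -0.92 (SE 0.06, adjusted p = 1.1e-06). Cdh12 was at 3.16, 3.02, 1.87 and 3.83 CPM in the deleted libraries, against 6.24, 5.63, 7.35 and 5.62 CPM in the wild-type libraries (log2 fold change -1.04, SE 0.18, adjusted p = 0.000662). Cdh9 was at 1.21, 1.27, 1.01 and 1.02 CPM in the deleted libraries, against 2.12, 1.54, 2.36 and 2.18 CPM in the wild-type libraries (log2 fold change -0.87, SE 0.17, adjusted p = 0.00135). For both genes the groups stood apart despite the low level.

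Cdh22, a type II cadherin of brain, went the other way. It was at 27.9, 33.6, 28.6 and 30.6 CPM in the deleted libraries, against 18.8, 18.4, 15.2 and 17.9 CPM in the wild-type libraries. The lowest deleted library was well above the highest wild-type library, and the log2 fold change was 0.78 (SE 0.08, adjusted p = 1.63e-05), or 1.72-fold. Cdh24, the second most abundant classical cadherin gene per length in deleted cortex, was at 72.3, 69.1, 71.1 and 72.2 CPM in the deleted libraries, against 73.6, 64.9, 57.1 and 61.2 CPM in the wild-type libraries. The deleted values were tight and wild-type replicate 1 lay above all of them, so the test was not passed (log2 fold change 0.15, SE 0.07, adjusted p = 0.0773). Cdh24 was at 0.098 without wild-type replicate 3 (adjusted p = 0.163) and passed without wild-type replicate 1, at 0.21 (adjusted p = 0.00408). Cdh11, found in mesenchyme as well as in cortical neurons, fell to 45.7 ± 1.39 CPM in deleted cortex, against 58.6 ± 7.85 CPM in wild-type cortex (log2 fold change -0.36, adjusted p = 0.00303). It was at 43.9, 46.8, 46.8 and 45.3 CPM in the deleted libraries, against 53.0, 56.7, 70.1 and 54.5 CPM in the wild-type libraries. With 1 library left out its log2 fold change ran from -0.42 to -0.26. Cdh11 kept its call with the meningeal level as a covariate. How far meningeal RNA, whose marker sums are given above, entered the result was not tested. Cdh6, Cdh7, Cdh18 and Cdh20 had log2 fold changes of -0.11, 0.06, -0.28 and -0.04 and did not pass (adjusted p = 0.139 to 0.735). Cdh19, known from Schwann cell and oligodendrocyte lineage cells, was left out by the filter, with 1 to 5 counts in the deleted and 2 to 8 counts in the wild-type libraries. Sox10, a marker of both lineages, fell by 1.32 on the log2 scale.

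Per length, the summed level of the 18 classical cadherin genes was 193 ± 2.06 RPKM in deleted and 200.3 ± 4.94 RPKM in wild-type cortex (SD). Within that sum the make-up differed. Cdh8, Cdh9, Cdh10 and Cdh12 together made 6.93 ± 0.484% of it in deleted and 11.4 ± 0.566% in wild-type cortex. Cdh22 made 4.36 ± 0.324% in deleted and 2.45 ± 0.255% in wild-type cortex, and Cdh24 13.5 ± 0.373% and 11.8 ± 1.26%. Cdh2 held 49.4 ± 0.529% in deleted and 46.8 ± 0.642% in wild-type cortex. These shares are descriptions of chosen genes and carry no test.

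**Figure D3:**
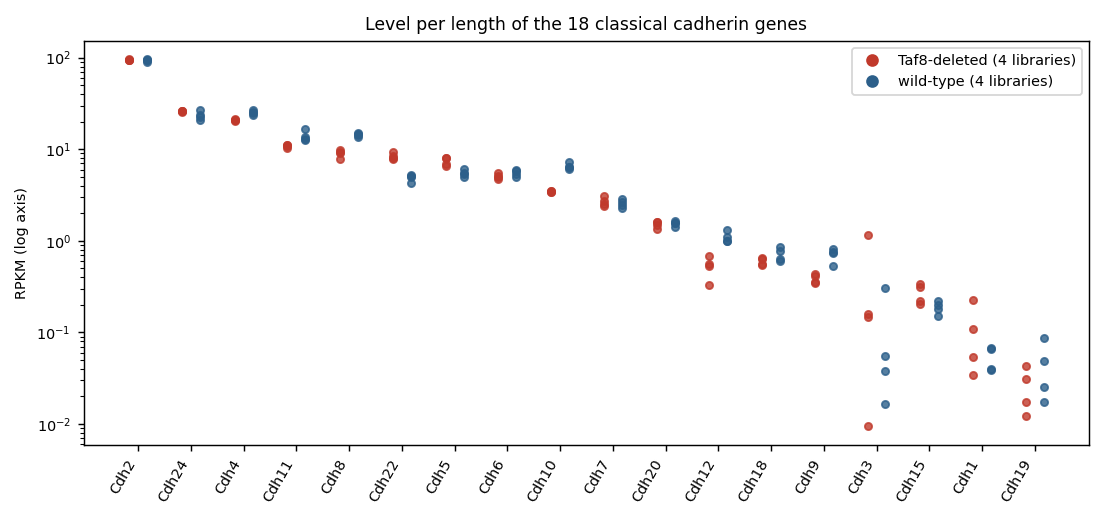
RPKM of the 18 classical cadherin genes on a log axis, ordered by their mean over all libraries, with 1 point per library, Taf8-deleted left of wild-type for each gene. Cdh2 averages 95.1 RPKM in deleted and 93.7 RPKM in wild-type cortex, Cdh22 is higher in deleted cortex, and Cdh8, Cdh10, Cdh12 and Cdh9 are higher in wild-type cortex.

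Several of the lower type II genes lie close together. Along mouse chromosome 15 (mm10) stand Cdh6 (13028699 to 13176407), Cdh9 (16728550 to 16857138), Cdh10 (18818869 to 19016206), Cdh12 (20448878 to 21598421) and Cdh18 (22548898 to 23477491). The inner 3 fell, and Cdh6 and Cdh18 at the ends did not pass the test. On chromosome 8, Cdh8 (99024471 to 99417666) and Cdh11 (102632095 to 102785493) fell, while their neighbour Cdh5 (104101613 to 104144504) rose. On chromosome 1, Cdh20, Cdh7 and Cdh19 form another neighbourhood, in which no tested gene passed. Genes of like direction were partly, not wholly, adjacent.

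The vascular cadherins rose along with other endothelial genes. Cdh5, VE-cadherin of endothelial junctions, was at 27.8, 32.0, 32.3 and 25.9 CPM in the deleted libraries, against 21.2, 21.7, 19.8 and 24.5 CPM in the wild-type libraries. All deleted libraries were above all wild-type ones, and the log2 fold change was 0.43 (SE 0.09, adjusted p = 0.00157). Pcdh12, a protocadherin of vascular endothelium, was at 8.89, 9.09, 9.35 and 8.32 CPM in the deleted libraries, against 7.93, 7.08, 7.05 and 7.78 CPM in the wild-type libraries. Its log2 fold change of 0.26 (SE 0.08, adjusted p = 0.014) lost its call without deleted replicate 3 (adjusted p = 0.0508), without wild-type replicate 2 (0.0561) and when the meningeal level was added as a covariate (0.0926). Of 10 endothelial markers 8 were higher and 0 lower, with a median log2 fold change of 0.28 and a summed level of 166 to 216 CPM in the deleted libraries, against 147 to 161 CPM in the wild-type libraries. Of 6 pericyte markers 5 were higher, with sums of 118 to 144 CPM in deleted and 90.7 to 96.2 CPM in wild-type libraries. Across all tested genes 29.5% were higher and 29.6% lower. In RNA from whole tissue, more or fewer cells of a type and more or less RNA per cell cannot be told apart, and the part of endothelial content in these 2 values was not tested.

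Cdh13 showed the strongest fall of the members named Cdh. It encodes T-cadherin, which is tied to the membrane by a lipid anchor and has no catenin-binding domain. It was at 26.3, 28.9, 29.4 and 33.3 CPM in the deleted libraries, against 67.2, 61.5, 75.7 and 68.2 CPM in the wild-type libraries. The groups were far apart, 2.31-fold, and the log2 fold change was -1.21 (SE 0.08, adjusted p = 7.84e-07). The hair-cell tip-link genes Cdh23 and Pcdh15 were low, at 2.61 ± 0.486 and 6.92 ± 0.927 CPM in deleted cortex, against 2.81 ± 0.395 and 6.98 ± 1.1 CPM in wild-type cortex, and neither passed (log2 fold change -0.10 and -0.02, adjusted p = 0.63 and 0.921).

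Markers of cortical neurons and of interneurons were lower in the same libraries. Of 10 cortical neuron markers 9 were lower and 0 higher (median log2 fold change -0.46), with summed levels of 4598 to 5183 CPM in the deleted libraries, against 6133 to 7451 CPM in the wild-type libraries. Of 8 interneuron markers 6 were lower and 1 higher (median -0.46), with sums of 701 to 707 CPM in deleted and 883 to 1012 CPM in wild-type libraries. Of 10 radial glia markers 6 were higher and 3 lower (median 0.39), with sums of 3374 to 3696 CPM in deleted and 2723 to 2952 CPM in wild-type libraries. Across all tested genes 29.5% were higher and 29.6% lower. The part of these marker shifts in the fall of Cdh8, Cdh9, Cdh10, Cdh12 and Cdh13 was not tested.

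Of the 12 non-clustered protocadherins 3 were higher, 5 lower and 4 did not pass, where 29.5% of all tested genes were higher and 29.6% lower. Pcdh20, a short gene (chromosome 14, 88464743 to 88471396), had the largest fall of all members. It was at 2.9, 2.34, 2.09 and 3.1 CPM in the deleted libraries, against 8.89, 10.4, 9.34 and 8.62 CPM in the wild-type libraries. The ranges were far apart, and the level was 3.52-fold lower in deleted cortex (log2 fold change -1.82, SE 0.13, adjusted p = 1.14e-06).

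Delta-1 protocadherins, whose tails hold a site for protein phosphatase 1, had 2 of 4 genes lower and 0 higher. Pcdh1, the member with the highest level per length of that subfamily, was at 30.4, 32.9, 31.4 and 31.1 CPM in the deleted libraries, against 39.8, 37.5, 40.7 and 42.7 CPM in the wild-type libraries. The deleted libraries were all lower, and the log2 fold change was -0.35 (SE 0.05, adjusted p = 0.000153). Pcdh7 averaged 37.0 ± 2.42 CPM in deleted and 44.0 ± 5.31 CPM in wild-type cortex, overlapped, and passed narrowly (log2 fold change -0.25, adjusted p = 0.0222). That call was lost without deleted replicate 2 (adjusted p = 0.0512), when the meningeal level was added as a covariate (0.139) and with the replicate block (0.0539). Pcdh9 (-0.03, adjusted p = 0.846) and Pcdh11x (0.27, adjusted p = 0.0747) did not pass. Pcdh11x was at 0.15 without wild-type replicate 2 (adjusted p = 0.211) and at 0.37 without wild-type replicate 3 (adjusted p = 0.0154).

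Delta-2 protocadherins, which can recruit the WAVE complex that drives actin branching, split evenly, with 2 of 5 higher and 2 lower. Pcdh8 was at 84.5, 83.1, 81.7 and 81.4 CPM in the deleted libraries, against 71.5, 72.6, 70.3 and 73.7 CPM in the wild-type libraries. The difference was small but wider than the spread within either group (log2 fold change 0.20, SE 0.03, adjusted p = 0.000557). Pcdh19, whose human counterpart is mutated in an epilepsy that affects mainly females, rose to 132 ± 7.96 CPM in deleted cortex, against 95.3 ± 16.1 CPM in wild-type cortex (log2 fold change 0.47, SE 0.10, adjusted p = 0.00278). Pcdh18 fell to 31.9 ± 2.53 CPM in deleted cortex, against 42.3 ± 0.774 CPM in wild-type cortex (log2 fold change -0.41, adjusted p = 0.000131). Pcdh10 fell to 113 ± 5.13 CPM in deleted cortex, against 134 ± 9.1 CPM in wild-type cortex (-0.24, adjusted p = 0.00334). Pcdh17 did not pass (-0.20, adjusted p = 0.0959). It was at -0.091 without wild-type replicate 3 (adjusted p = 0.235) and at -0.27 without wild-type replicate 1 (adjusted p = 0.0462).

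**Figure D4:**
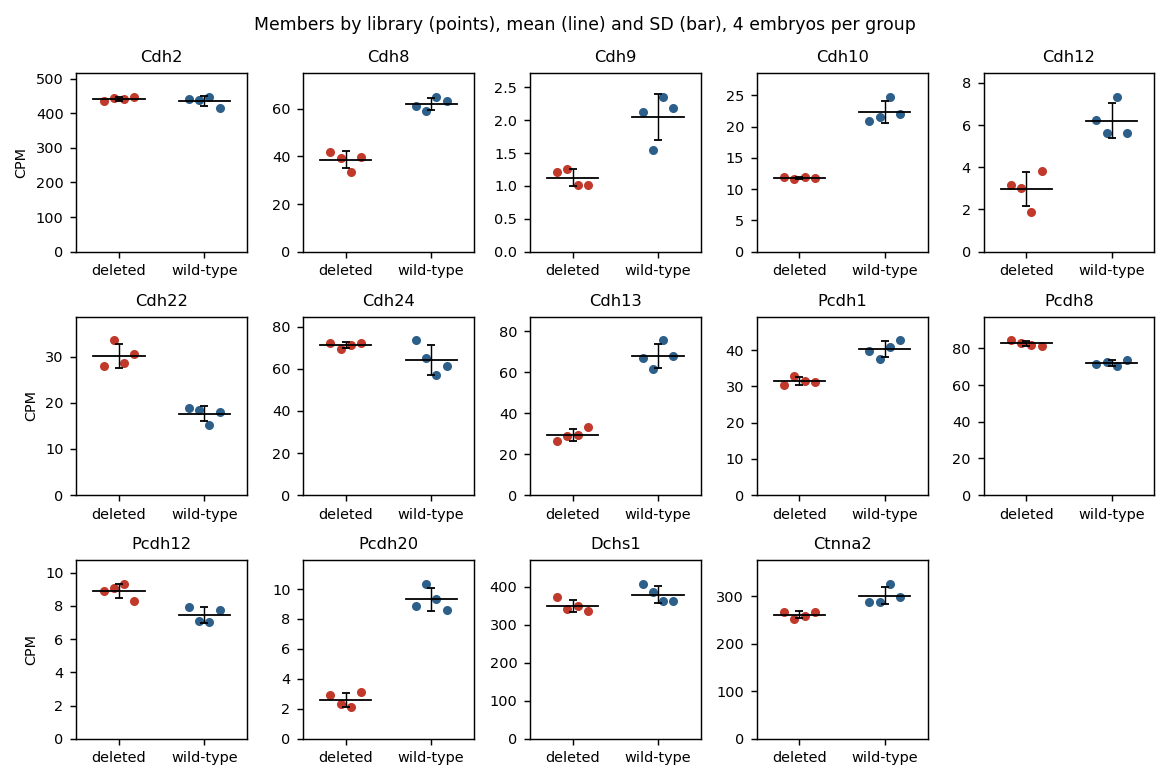
CPM of 14 members in every library (points), with the group mean (line) and SD (bar) over 4 embryos, Taf8-deleted left of wild-type and each axis starting at 0. Pcdh20, Cdh13, Cdh12, Cdh10, Cdh9 and Cdh8 are lower in every deleted library, Cdh22 is higher in every one, and the Cdh2 groups overlap.

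TFIID acts at the core promoter, so the stretches just before the annotated starts of a few members are shown to set their sequence beside their change. RefSeq promoter windows (GRCm38.p6, the sequence of mm10) were matched for 27 of the 40 members, 31 windows in all, each holding 250 bases before and 50 after a start. The motif searched was TATAAA, the core of the TATA box. On the sense strand, beginning 20 to 40 bases before the start, it was found in 2 of the 31 windows, 6.45%, against 1.99% of all 32851 windows of that length. Anywhere in the window and on either strand (TATAAA or TTTATA, which may overlap), it was found in 3 of 31, 9.68%, against 13.6% of all windows. The 80 bases before the start are given 5′ to 3′ on the gene's strand for those 2 members and for 4 others. Each of the 4 moved by more than 0.5 on the log2 scale. Cdh9 and Cdh12 moved by as much and had windows that are not printed. Capitals mark TATAAA.
Pcdh8: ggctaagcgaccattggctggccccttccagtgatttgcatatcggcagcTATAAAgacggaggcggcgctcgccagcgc
Pcdh15: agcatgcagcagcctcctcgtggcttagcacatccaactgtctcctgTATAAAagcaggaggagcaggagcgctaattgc
Pcdh20: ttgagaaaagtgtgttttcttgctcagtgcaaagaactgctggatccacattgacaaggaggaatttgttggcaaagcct
Cdh8: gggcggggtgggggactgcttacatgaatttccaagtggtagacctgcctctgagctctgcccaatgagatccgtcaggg
Cdh10: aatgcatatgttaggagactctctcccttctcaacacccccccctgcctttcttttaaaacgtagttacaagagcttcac
Cdh22: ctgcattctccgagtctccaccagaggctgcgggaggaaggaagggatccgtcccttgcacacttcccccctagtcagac

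These stretches are chr14:79771313-79771392 (minus strand) for Pcdh8, chr10:73821787-73821866 (plus) for Pcdh15, chr14:88471397-88471476 (minus) for Pcdh20, chr8:99416472-99416551 (minus) for Cdh8, chr15:18820249-18820328 (plus) for Cdh10 and chr2:165234738-165234817 (minus) for Cdh22. In Pcdh8 the motif began 30 bases before the start and in Pcdh15 33 bases before it. The Pcdh15 stretch lies inside the span of that gene (chr10:73096277-74649831), so the start it precedes is an internal one. The stretches of Cdh8, Cdh10 and Cdh22, and those of Cdh9 and Cdh12, also lie inside the spans of their genes. For Cdh12 it begins at 21111372, in a span that begins at 20448878. Those of Pcdh8 and Pcdh20 lie just outside. The counts are for whole genes, and the part of the internal starts in them was not tested. Pcdh8 rose by 0.20 and Pcdh15 had a change of -0.02 on the log2 scale, and the stretches printed for Pcdh20, Cdh8, Cdh10 and Cdh22 hold no TATAAA on this strand. No window was matched for Cdh13, Cdh3 or Cdh1. G and C made up 54.3% of the whole window of Pcdh8, 43.7% of that of Pcdh20 and 62.3% of that of Cdh8. They made up 37.7% of that of Cdh10 and 76.3% of that of Cdh22. In the windows of Cdh9 and Cdh12, which are not printed, they made up 48.7% and 46.7%. Genes that fell thus included both GC-poor and GC-rich windows at these starts, several of which lie inside the gene span.

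Of the Fat and Dachsous cadherins, Fat1 rose and the Fat4 and Dchs1 pair did not pass the test. Fat1, which supports apical junctions of cortical progenitors, was at 288, 224, 234 and 237 CPM in the deleted libraries, against 192, 187, 172 and 166 CPM in the wild-type libraries. All deleted libraries were higher, and the log2 fold change was 0.46 (SE 0.08, adjusted p = 0.000608). Dchs1, the ligand of Fat4, was at 373, 341, 348 and 337 CPM in the deleted libraries, against 408, 386, 362 and 361 CPM in the wild-type libraries. The groups overlapped through deleted replicate 1, and the log2 fold change of -0.12 (SE 0.05) missed the threshold (adjusted p = 0.0695). Dchs1 passed without deleted replicate 1 (-0.16, adjusted p = 0.0176), without wild-type replicate 3 (-0.14, adjusted p = 0.0356) or 4 (-0.15, adjusted p = 0.0287), and by DESeq2 (adjusted p = 0.0375), and had an adjusted p of 0.122 without wild-type replicate 1. Fat4 averaged 241 ± 31.7 CPM in deleted and 273 ± 37.4 CPM in wild-type cortex (-0.18, adjusted p = 0.173), and ranged from -0.095 without wild-type replicate 3 (adjusted p = 0.42) to -0.27 without wild-type replicate 4 (adjusted p = 0.0446) or without deleted replicate 1 (adjusted p = 0.0501). Without both choroid-rich libraries Fat4 was at -0.34 (adjusted p = 0.0121) and Dchs1 at -0.17 (adjusted p = 0.026). Fat3, a Fat cadherin of neurons, averaged 179 ± 33.4 CPM in deleted and 173 ± 31.1 CPM in wild-type cortex (0.05, adjusted p = 0.785). Of the summed RPKM of Fat1, Fat3 and Fat4, Fat1 made 40.6 ± 1.57% in deleted and 32.0 ± 3.31% in wild-type cortex, and Fat4 36.1 ± 0.75% and 43.9 ± 1.49%.

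Catenins of the member list shifted little. Ctnna2, the alpha-catenin of neurons, was at 267, 252, 259 and 267 CPM in the deleted libraries, against 289, 289, 327 and 299 CPM in the wild-type libraries. All deleted libraries were lower, and the log2 fold change was -0.21 (SE 0.05, adjusted p = 0.00358). Ctnna1, the alpha-catenin of progenitors and epithelia, was at 225 to 239 CPM in deleted and 188 to 224 CPM in wild-type libraries and just missed the threshold (0.14, SE 0.06, adjusted p = 0.0527). Ctnnd1, p120-catenin, which holds cadherins at the membrane, was at 263 to 277 CPM in deleted and 279 to 302 CPM in wild-type libraries and just missed it in the other direction (-0.10, SE 0.04, adjusted p = 0.0502). Both crossed the threshold in several alternatives, among them DESeq2 (adjusted p = 0.0459 for Ctnna1 and 0.0201 for Ctnnd1). Ctnnd2, delta-catenin of synapses, was at 167 ± 3.09 CPM in deleted and 170.1 ± 4.01 CPM in wild-type cortex and did not pass (-0.03, adjusted p = 0.508). Ctnna2 made 49.9 ± 1.34% of the summed RPKM of both alpha-catenins in deleted cortex and 55.9 ± 3.4% in wild-type cortex.

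Around these members, other genes of the junction were read from 6 lists, 44 genes of which 40 were tested. Of those, 14 were higher and 15 lower, 72.5% in all against 59.2% of all tested genes, with a median log2 fold change of -0.04 against 0.01. Among other catenins and junction linkers 6 of 14 were higher and 7 lower, 92.9% in all. Lima1, which ties alpha-catenin to actin, was 2.3-fold lower at 39.3 ± 1.89 CPM in deleted and 90.4 ± 7.32 CPM in wild-type cortex (adjusted p = 1.72e-07). The actin cross-linker gene Actn1 fell by 0.60 on the log2 scale (adjusted p = 5.9e-06), while Ctnnb1, beta-catenin, rose by 0.32 (adjusted p = 4.31e-06). Jup, plakoglobin, fell by 0.50 (adjusted p = 5.71e-05). Ctnnb1 was the most abundant of them, at 1996 ± 17.7 CPM in deleted and 1597 ± 38.98 CPM in wild-type cortex. Of 4 nectins, the other adhesion receptors of adherens junctions, Nectin3 rose by 0.45 and Nectin1 by 0.14, and Nectin2 and Nectin4 did not pass (-0.11 and 0.15).

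In the list of Fat and Dachsous partners, the relatives of the Drosophila gene lowfat fell strongly. Lix1l fell to 70.7 ± 5.33 CPM in deleted cortex, against 151 ± 3.47 CPM in wild-type cortex, and Lix1 to 13.3 ± 2.05 CPM in deleted cortex, against 45.3 ± 2.4 CPM in wild-type cortex (log2 fold change -1.09 and -1.77, adjusted p = 1.19e-07 and 2.53e-07). Fjx1, the mouse relative of the kinase that acts on Fat and Dachsous in Drosophila, rose by 0.23 (adjusted p = 0.00294), and Dlg5 did not pass (-0.03). Of the Celsr cadherins and calsyntenins, 4 of 6 were lower and 0 higher, 66.7% called against 59.2% of all tested genes. The lower ones were Clstn2 (-0.67), Celsr1 (-0.34), Celsr3 (-0.31) and Clstn1 (-0.10). Of 7 genes of cadherin turnover 3 were higher and 0 lower, 42.9% called, below the 59.2% of all tested genes. The E-cadherin ubiquitin ligase gene Cbll1 was at 0.56 (adjusted p = 0.00026) and Psen2 at 0.31, and Numbl did not pass (-0.04). Repressors of E-cadherin went both ways. Zeb2, abundant in cortical neurons and progenitors, fell by 0.69 (adjusted p = 7.57e-06) and Zeb1 by 0.13, while the scarce Snai1 and Snai2 rose by 1.26 and 0.88 (adjusted p = 0.00172 and 0.0135). Snai1 averaged 1.03 CPM in deleted and 0.437 CPM in wild-type cortex, and Snai2 0.891 and 0.489 CPM.

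Genomic span was looked at because many cadherin genes are very long. Among all tested genes with a RefSeq span, 32.2% of the 10869 under 50 kb were higher and 27.4% lower. Of the 217 genes of 500 kb or more, 10.1% were higher and 47.0% lower, with a median log2 fold change of -0.24. Among the members, the 6 higher genes spanned 4.54 to 123 kb, and the 13 lower ones 6.65 to 1185 kb, with medians of 74.5 and 197 kb. No member of 200 kb or more was higher. Of the 15 such members that were tested 6 were lower, among them Cdh13 and Cdh12 at 1185 and 1149.5 kb. Pcdh15, the longest at 1554 kb, and the long Fat3, Pcdh9 and Ctnnd2 did not pass. Of all tested genes of 200 to 500 kb, 15.5% were higher and 44.4% lower, and of the 6 members there 3 were lower. Of the 9 members of 500 kb or more 3 were lower, 33.3% against 47.0% of all genes. The median log2 fold change there was -0.03 in members and -0.24 in all genes. No test was made of these differences. Spearman's rho of span and log2 fold change was -0.27 over the 39 tested members and -0.14 over 15227 genes, which are not independent replicates. Pcdh20, at 6.65 kb, fell most and was among the shortest members.

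**Figure D5:**
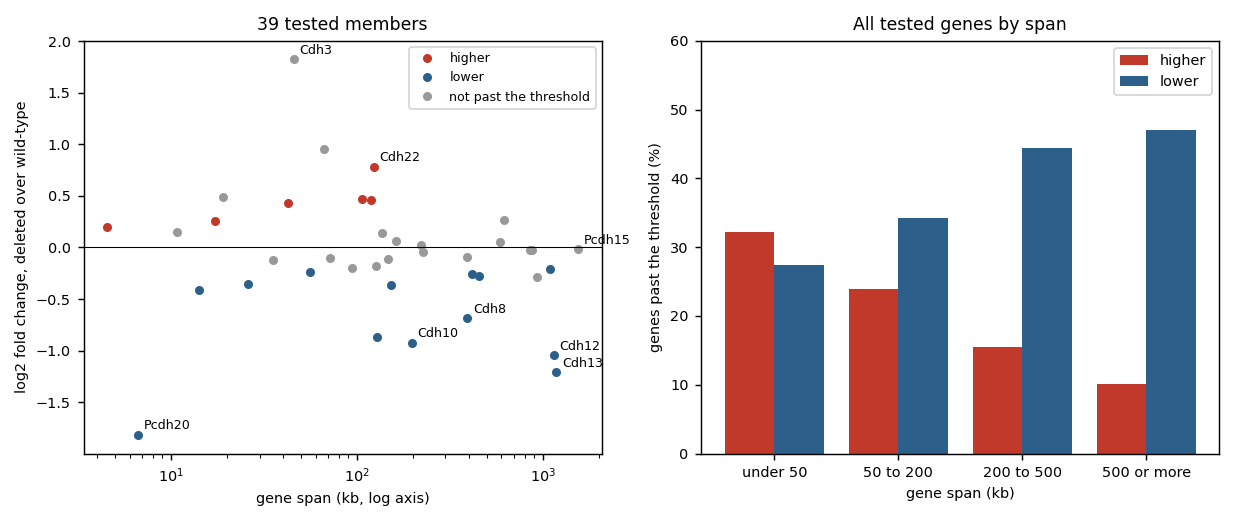
Left, log2 fold change (Taf8-deleted over wild-type) of the 39 tested members against gene span in kb on a log axis, coloured by call. Right, the percentage of all tested genes that were higher or lower, by span, which goes from 32.2% higher and 27.4% lower under 50 kb to 10.1% higher and 47.0% lower at 500 kb or more.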

How the data were processed

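The authors deposited read counts for each Entrez gene, not normalized, with the gene length. Per the submitters' processing notes, Subread 1.5.0 and featureCounts were used on mm10. The sources used here do not give the annotation, the strand setting or the treatment of reads with several matches, so overlapping genes are uncertain. RNA was made into stranded poly(A) libraries, per the labels' protocols. The single-sample files differed from the matrix in 0 places, and pairs of libraries of 1 group differed by more than sampling noise (chi-square over its degrees of freedom, 3.56 to 27.0).

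Symbols and coordinates came from a RefSeq table (GRCm38.p6) for 25275 genes. Counts were tested with edgeR 4.0.16 in R 4.3.3 (TMM, filterByExpr, quasi-likelihood F-test) with Benjamini-Hochberg adjustment over 15649 genes. SE is the log2 fold change divided by the root of its F statistic. Steps were tested on simulated data. Alternatives used DESeq2 1.42.0, limma 3.58.1 voom, other scalings, filters and thresholds, a replicate block and 1 library left out. Members, lists and tests were chosen with earlier results of these data known. Values per library are given for members past the threshold with no overlap and a log2 fold change of at least 0.5, and for the member of each subfamily highest per length. Cdh1, Cdh3, Cdh5, Cdh11 and Fat1 were added after their values were seen. Of each list of other junction genes up to 4 are named by smallest adjusted p, apart from 1 gene that is not reported here.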

Additional observations from a re-analysis of the deposited data

Results flagged for a closer look

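In 3 of 80 groups of 4 libraries, 2 for each of the 40 members, 1 library lay far from the other 3, its gap exceeding Dixon's critical value. Chance flags about 1 in 20 such groups. Cdh3 was at 4.59 CPM in deleted replicate 1, against 0.0377 to 0.636 CPM in the other 3 deleted libraries. It was at 1.23 CPM in wild-type replicate 4, against 0.0664 to 0.219 CPM in the other 3 wild-type libraries. These are the libraries with the highest choroid plexus marker sums of their groups, 1234 and 416 CPM, and the part of those cells in Cdh3 was not tested. Pcdh15 was at 8.63 CPM in wild-type replicate 3, against 6.40 to 6.48 CPM in the other 3 wild-type libraries.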

How the results depend on the processing

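Of the 19 called members, 17 kept their call and direction under every other scaling, filter, tool, covariate and left-out library, and Pcdh7 and Pcdh12 lost theirs in at least 1. Against a 1.2-fold change 4635 genes of the whole table, 29.6% of those tested, were called, and 4 higher and 8 lower members. At an adjusted p under 0.01 there were 7159 called genes, 45.7% of those tested, with 5 higher and 12 lower members. Leaving out 1 library gave 8404 to 9450 called genes, 5 to 8 higher members and 12 to 16 lower ones. With the replicate block 8285 genes, 6 higher and 12 lower members were called. Deviations of same-numbered libraries correlated at -0.464 to 0.0138 and no deleted library correlated best with the wild-type library of its number, so the numbers were not taken as pairs. Without deleted replicate 1 and wild-type replicate 4, an alternative chosen after seeing the data, 6 higher and 15 lower members were called. That fit called 8001 genes, 51.5% of those tested. With the meningeal level added as a covariate, also chosen after seeing the data, 6 higher and 12 lower members were called. In that fit 7953 genes, 50.8% of those tested, were called.

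Signs turned only in members that had not passed. With 1 library left out the log2 fold change ran from -0.014 to 0.034 for Cdh2, -0.17 to 3.16 for Cdh3, -0.030 to 0.12 for Cdh7, -0.13 to 0.088 for Pcdh9, -0.12 to 0.11 for Pcdh15 and -0.084 to 0.18 for Fat3. Upper-quartile scaling gave 0.0019 for Pcdh9 and 0.013 for Pcdh15. Library size alone gave 0.0021 for Cdh20, 0.015 for Pcdh9, 0.026 for Pcdh15 and 0.013 for Ctnnd2. Without both choroid-rich libraries Cdh20 was at 0.0074 and Fat3 at -0.14, and with the meningeal covariate Cdh1 was at -0.15, Cdh23 at 0.097, Pcdh9 at 0.14 and Pcdh15 at 0.085. The cause was not tested. Depth limits Cdh1, Cdh3, Cdh15 and Cdh19.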

Other observations

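Markers of oligodendrocyte precursors and Schwann cells were lower in 3 of 5 tested genes and higher in 0, with sums of 62.7 to 70.1 CPM in deleted and 63.6 to 75.5 CPM in wild-type libraries. Of 8 markers of microglia and macrophages 5 rose and 1 fell, and they summed to 45.2 to 61.0 CPM in deleted and 40.02 to 46.1 CPM in wild-type libraries. Of 8 choroid plexus markers 1 rose and 0 fell, and of 9 meningeal fibroblast markers 4 rose and 0 fell. Neither of the 2 tested surface epithelium markers passed. Across all tested genes 29.5% were higher and 29.6% lower.

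Wild-type replicate 3 was the highest of the 4 wild-type libraries in 22 of the 39 tested members, 56.4%, against 32.6% of all tested genes. Pcdh9, Pcdh15, Pcdh17, Fat3, Fat4, Cdh11 and Pcdh19 were among them. Wild-type replicate 3 was also the most deeply sequenced library, with 65523487 counts, and had the highest sum of cortical neuron markers, 7451 CPM. Among the wild-type libraries Dcx, Map2, Stmn2, Syt1, Snap25 and Neurod6 were highest there, and Rbfox3, Syn1 and Neurod2 were not. Tubb3 was lowest there, at 1641 CPM. The part of depth or of neuron content in the values of the members was not tested.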
